A study of Procambarus virginalis and Procambarus fallax with 9 samples.

Results

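The abdominal musculature of the marbled crayfish Procambarus virginalis was dominated by a small set of transcripts, and 99 of the 21773 gene models in the files reached a mean of at least 1000 TPM over its 3 libraries. TPM, a relative transcript abundance, divides the fragments assigned to a gene by the usable length of its transcript and scales every library to a sum of 1000000. The 99 genes were therefore chosen by their own level in P. virginalis muscle, and that level is described here without a test. They are called by their rank, from rank 1 for the highest mean to rank 99 for the lowest. The files do not pair the gene identifiers with names, so what each gene encodes is not given here.

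RNA sequencing was analysed from 9 libraries, each from 1 tissue of 1 animal. Abdominal musculature and hepatopancreas came from the same 3 animals of the Heidelberg laboratory strain of P. virginalis, numbered 2, 6 and 7. Abdominal musculature of the slough crayfish P. fallax came from 3 females obtained through an aquarium supply, numbered 1, 3 and 4. Ages are not given, and no treatment or engineered allele is stated for any animal. P. virginalis reproduces clonally and descends from the sexually reproducing P. fallax. The P. fallax reads were assigned to the gene models of P. virginalis. P. virginalis animals 2 and 6 were read with shorter reads than P. virginalis animal 7 and all P. fallax animals, so species and read length are partly tied together. The library kit does not mark strand, so overlapping genes on opposite strands cannot be told apart.

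As background, the abdominal muscle of a crayfish drives the tail flip, the escape swim in which the abdomen snaps forward under the body. Striated muscle fibres are packed with sarcomeres, in which filaments of myosin slide along filaments of actin under the control of tropomyosin, troponin and calcium, and such fibres typically devote much of their mRNA to these few proteins and to the enzymes that regenerate ATP. The hepatopancreas is the digestive gland of decapods, which secretes digestive enzymes and stores lipids. Genes for ribosomal proteins and other basic cell functions are usually abundant in both kinds of tissue.

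The total of expected counts, the fragments estimated for each gene, ranged from 6001494 to 18661368 in P. virginalis muscle, from 9109577 to 11942816 in P. fallax muscle and from 12947418 to 67369392 in the hepatopancreas. Counting error was small for most of the 99 genes, which leaves aside any error in the usable length. The deposited interval of TPM had a median halfwidth of 2.58% of the value over the 99 genes in the widest of the 3 P. virginalis muscle libraries, against 117% over all genes with a value. It was above 20% for 4 genes, at 21.1% for rank 23, 88.4% for rank 85, 89.4% for rank 86 and 23.9% for rank 91, and at most 9.40% for the other 95. The tissue labels could not be checked against named marker genes. The 20 most abundant hepatopancreas genes outside the 99 summed to 67.5, 268 and 135 TPM in muscle of P. virginalis animals 2, 6 and 7 and to 134, 1452 and 194 TPM in muscle of P. fallax animals 1, 3 and 4, against 392478 to 422461 TPM in the hepatopancreas libraries. The muscle of P. fallax animal 3 held the highest of these sums among the muscle libraries.

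The 99 genes took 89.9%, 92.9% and 85.1% of all expected counts in P. virginalis muscle of animals 2, 6 and 7. They took 88.0%, 84.9% and 77.2% in P. fallax muscle of animals 1, 3 and 4, and 13.7%, 14.3% and 13.1% in the hepatopancreas of animals 2, 6 and 7. The group means were 89.3% ± 3.93 in P. virginalis muscle, 83.4% ± 5.57 in P. fallax muscle and 13.7% ± 0.633 in the hepatopancreas (SD, n = 3 each). The ranges of the 2 muscle groups overlapped, and both lay far above the hepatopancreas. By summed TPM the means were 91.8% ± 2.57 in P. virginalis muscle, 87.5% ± 4.09 in P. fallax muscle and 25.5% ± 3.80 in the hepatopancreas (SD, n = 3 each). A share of counts does not divide by length and a share of TPM does, which moved the hepatopancreas value most. Because these are bulk tissues, fewer cells of a type and less RNA per cell cannot be told apart in any of these levels.

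**Figure D1:**
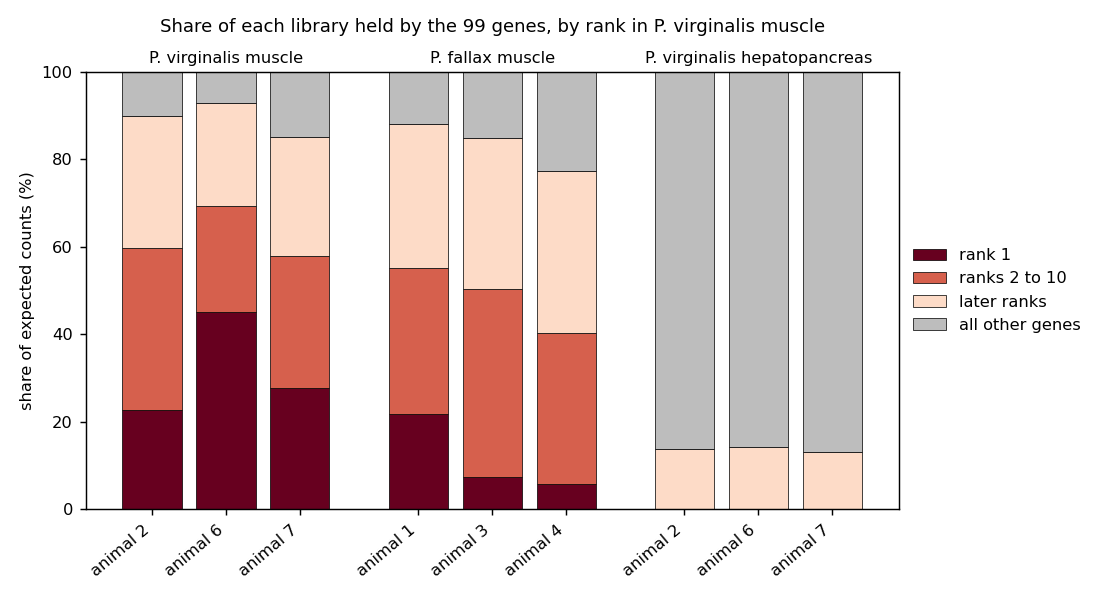
Share of expected counts (y axis, %) held by the 99 genes in each of the 9 libraries (x axis, by group and animal), stacked as rank 1, ranks 2 to 10, the later ranks to 99 and all other genes (grey). Rank 1 takes between 22.8% and 45.0% of the P. virginalis muscle libraries and between 5.68% and 21.8% of the P. fallax muscle libraries, and ranks 11 to 99 make up nearly all of the 13.1% to 14.3% in the hepatopancreas.

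Very few genes accounted for most of this. Reaching 50% of all TPM took 4, 3 and 4 genes in P. virginalis muscle of animals 2, 6 and 7 and 4, 5 and 7 genes in P. fallax muscle of animals 1, 3 and 4. In the hepatopancreas 22, 26 and 19 genes were needed. Ranks 1 to 10 together held 59.7%, 69.2% and 57.9% of the counts in P. virginalis muscle and 55.1%, 50.4% and 40.3% in P. fallax muscle. In the hepatopancreas the same 10 genes held 0.0747%, 0.156% and 0.0854% of the counts. Ranks 11 to 99 held 30.2%, 23.7% and 27.2% in P. virginalis muscle and 33.0%, 34.5% and 36.9% in P. fallax muscle, against 13.6%, 14.2% and 13.0% in the hepatopancreas.

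Rank 1, maker-scaffold11143-snap-gene-2.2, has a transcript of 1132 nt. It stood at 189178, 381961 and 248492 TPM in P. virginalis muscle of animals 2, 6 and 7 and at 212223, 57634 and 50830 TPM in P. fallax muscle of animals 1, 3 and 4. It was the most abundant gene in all 3 P. virginalis muscle libraries and in P. fallax animal 1. The 2 species overlapped through P. fallax animal 1, which lay above P. virginalis animal 2. In the hepatopancreas rank 1 stood at 454, 882 and 565 TPM, so that it was present there in all animals at a far lower level.

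Rank 2, snap_masked-scaffold3767-processed-gene-0.6 (528 nt), had the smallest coefficient of variation (the SD as a percentage of the mean) of the first 4 genes in P. virginalis muscle, 13.9%. It stood at 149234, 112663 and 131720 TPM in P. virginalis muscle, at 132769, 92598 and 140672 TPM in P. fallax muscle and at 0.32, 11.0 and 12.1 TPM in the hepatopancreas. When TPM was rescaled without rank 1, which took 38.2% of TPM in P. virginalis animal 6, the 3 P. virginalis values of rank 2 became 184052, 182290 and 175273 TPM. Its lower value in animal 6 was thus no longer the lowest once rank 1 was left out of the total.

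Rank 3, snap-scaffold174667-processed-gene-0.0 (348 nt), stood at 94162, 50408 and 65365 TPM in P. virginalis muscle, at 56008, 163791 and 88787 TPM in P. fallax muscle and at 12.3, 69.1 and 70.8 TPM in the hepatopancreas. Rank 4, maker-scaffold11857-snap-gene-0.30 (1424 nt), stood at 110812, 23878 and 65795 TPM in P. virginalis muscle and at 100509, 145579 and 127100 TPM in P. fallax muscle. In the hepatopancreas rank 4 had 0.03, 1.96 and 10.6 TPM. Rank 3 was the most abundant gene of P. fallax animal 3 and rank 2 that of P. fallax animal 4, whereas the most abundant hepatopancreas gene was never one of the 99. Rank 4 varied most among P. virginalis animals of these 4, with a coefficient of variation of 65.1%, and rank 1 varied most among P. fallax animals, at 85.4%.

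**Figure D2:**
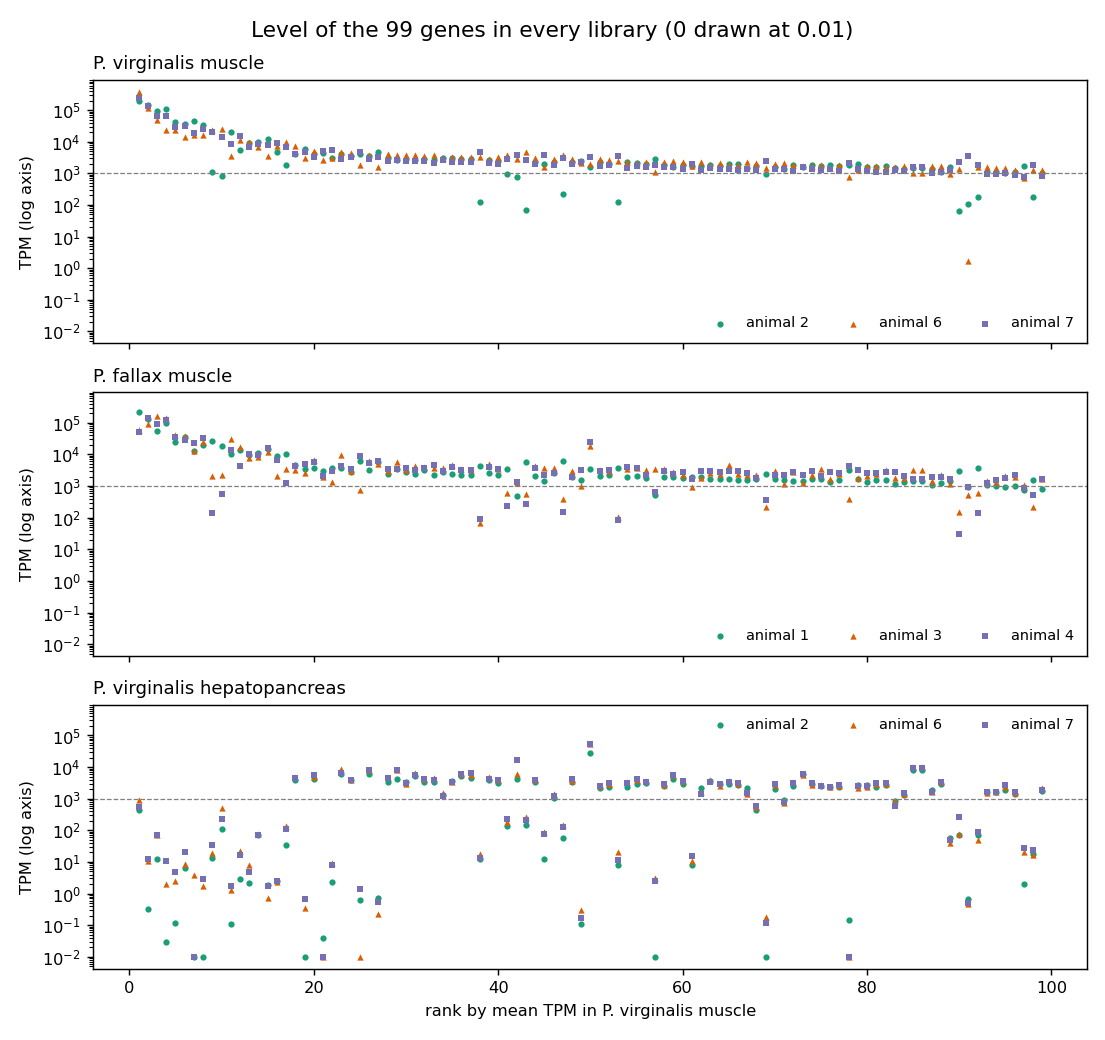
TPM on a log axis (y) of each of the 99 genes against its rank in P. virginalis muscle (x), with 1 point per animal and a panel each for P. virginalis muscle, P. fallax muscle and P. virginalis hepatopancreas. The dashed line marks 1000 TPM, which 79 genes reached in every P. virginalis muscle library and 79 in every P. fallax muscle library, while the hepatopancreas points of ranks 1 to 17 all lie below it.

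Just inside the limit of 1000 TPM lay rank 98, maker-scaffold12256-snap-gene-0.1, with 175, 1301 and 1774 TPM in P. virginalis muscle, and rank 99, maker-scaffold28267-snap-gene-0.1, with 1041, 1264 and 800.0 TPM. Just outside lay maker-scaffold22342-snap-gene-0.65, with 1012, 1185 and 772 TPM, and maker-scaffold45942-snap-gene-0.1, with a mean of 963 TPM. The means on either side of the limit were 1035 and 990 TPM, a gap smaller than the spread between animals. Choosing the genes from only 2 animals at a time gave 99, 98 and 97 genes without animal 2, 6 and 7, of which 98, 97 and 95 were among the 99. Of these lists, 86.9% reached 1000 TPM in the animal left out when it was animal 2, 94.9% when it was animal 6 and 91.8% when it was animal 7. The 99 genes include 20 that fell short of 1000 TPM in at least 1 P. virginalis animal.

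The 99 genes differed in length from 150 to 11017 nt, with a median of 639 nt and an interquartile range of 440 to 1131 nt. The median was 546 nt over all 21773 models and 992 nt over the 10769 models with any TPM in P. virginalis muscle. Short models weigh heavily in a ranking by TPM, since it divides by length. Of the 99, 11 were shorter than 300 nt and 10 were at least 2000 nt long. The usable length was under 100 nt in some library for 11 of the 99. For rank 7, a model of 207 nt, it was 37 nt at its smallest. How far the TPM of such genes depends on the estimate of usable length was not tested. Rank 23, the shortest at 150 nt, reached 3958, 4697 and 2900 TPM in P. virginalis muscle on 261, 804 and 84.0 expected counts. Its usable length was 3.99 nt at its smallest over the libraries, so its level and its place among the 99 rest on that estimate. A limit of 1000 CPM, the expected counts scaled to the library total without regard to length, gave 71 genes, of which 61 were among the 99, or 85.9% of that list and 61.6% of the 99. Identifiers beginning with evm made up 41.4% of the 99 genes, against 9.68% of all models, and those beginning with maker made up 39.4% of the 99 and 38.8% of all models.

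Fragments that fit several similar transcripts are divided between them, which leaves expected counts that are not whole. Such counts occurred in at least 1 library for 30 of the 99 genes (30.3%), against 33.3% of all models. Ranks 5 and 8 lie on scaffold 143586 with lengths of 1134 and 1131 nt. Rank 5 stood at 42056, 23747 and 29403 TPM in P. virginalis muscle and at 23923, 40459 and 36365 TPM in P. fallax muscle. Rank 8 stood at 34749, 16857 and 25216 TPM in P. virginalis muscle and at 20460, 25620 and 32245 TPM in P. fallax muscle. Ranks 45 and 49 have the same length of 1131 nt, and all 4 of these models had divided fragments, but the deposited posterior SD of their muscle counts was at most 0.27% of the count. How far similar copies share these fragments was not tested. Ranks 85 and 86, both 261 nt long, had identical values in every library, so that their levels cannot be told apart, with 1526, 1034 and 1636 TPM each in P. virginalis muscle and 1395, 3170 and 1618 TPM each in P. fallax muscle.

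Members also lay together on scaffolds: 13 of the 99 genes shared 6 scaffolds with another of them. On scaffold 13976, rank 15 (5190 nt) stood at 12565, 3639 and 7931 TPM in P. virginalis muscle and at 14557, 12199 and 15792 TPM in P. fallax muscle. On the same scaffold rank 27, the longest of the 99 at 11017 nt, stood at 4724, 1599 and 3362 TPM in P. virginalis muscle and at 5693, 4832 and 6360 TPM in P. fallax muscle. In both, P. virginalis animal 6 was lowest and animal 2 highest. The other member there, rank 25 (345 nt), took another course, at 4070, 1805 and 4602 TPM in P. virginalis muscle and 6421, 759 and 8811 TPM in P. fallax muscle. Ranks 13 and 46, on scaffold 30923, differed between tissues. Rank 13 stood at 8859, 10095 and 6875 TPM in P. virginalis muscle and at 2.13, 8.03 and 4.90 TPM in the hepatopancreas, while rank 46 kept more than 1000 TPM in every hepatopancreas library.

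The level in the hepatopancreas, which played no part in choosing the genes, divided them widely. There, 33 genes had a mean under 100 TPM, 9 had 100 to 1000 TPM and 57 had at least 1000 TPM. The limit of 100 TPM was set after the values were seen. The 33 genes under 100 TPM held most of the muscle counts in 4 of the 6 muscle libraries, with 58.6%, 34.0% and 48.2% in P. virginalis muscle of animals 2, 6 and 7 and 55.8%, 64.2% and 59.2% in P. fallax muscle of animals 1, 3 and 4. The 9 genes of 100 to 1000 TPM, rank 1 among them, held 23.4%, 50.3% and 30.8% in P. virginalis muscle and 26.0%, 8.40% and 6.39% in P. fallax muscle.

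The 57 genes of at least 1000 TPM in the hepatopancreas held less of the muscle. Their share was 7.82%, 8.63% and 6.12% of the counts in P. virginalis muscle and 6.24%, 12.2% and 11.6% in P. fallax muscle, against 13.3%, 13.9% and 12.7% in the hepatopancreas. The first of them in P. virginalis muscle was rank 18, and their highest mean there was 5118 TPM. They make up 57.6% of the 99 genes and 40.1% of the 142 genes that reached a mean of 1000 TPM in the hepatopancreas. For 53 of the 57 the mean TPM was lower in P. virginalis muscle than in the hepatopancreas, with a median ratio of 0.622. Their models were also shorter, with a median of 556 nt, against 1020 nt for the 33 genes under 100 TPM and 971 nt for the 9 between.

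**Figure D3:**
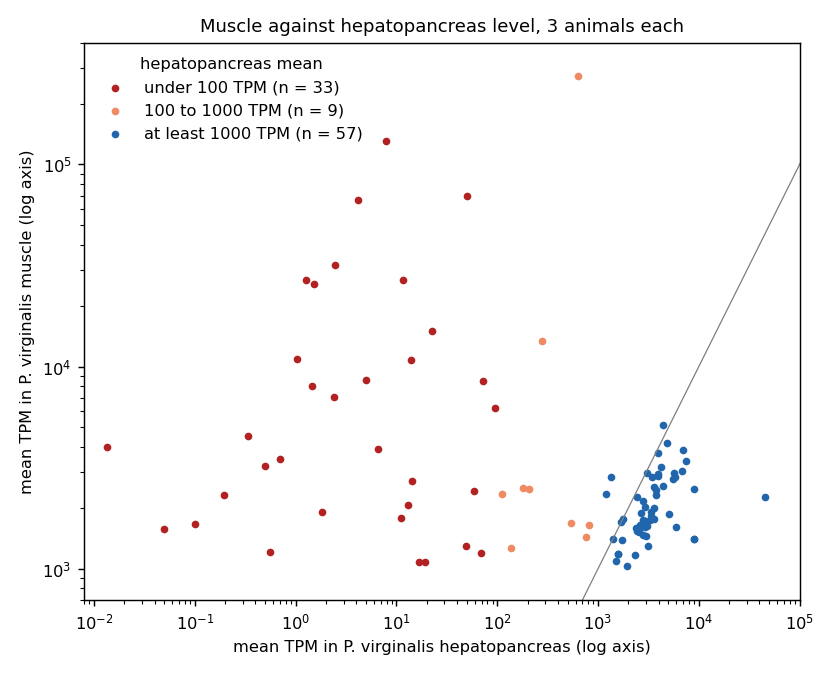
Mean TPM of each of the 99 genes in P. virginalis muscle (y, log axis) against its mean TPM in the hepatopancreas (x, log axis), coloured by hepatopancreas mean: 33 genes under 100 TPM, 9 from 100 to 1000 TPM and 57 of at least 1000 TPM. The genes highest in muscle sit at the left and centre, and those of at least 1000 TPM in the hepatopancreas lie between 1035 and 5118 TPM in muscle.

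Muscle and hepatopancreas of P. virginalis were compared gene by gene over all genes with edgeR's quasi-likelihood test on expected counts, with p-values adjusted by Benjamini and Hochberg. Of 6770 genes tested, 38.4% passed an adjusted p of 0.05, with 13.9% higher and 24.5% lower in muscle. Among the 99 genes, 44 were higher and 1 was lower in muscle. Since the genes were picked for being high in the muscle libraries of this contrast, these counts only describe them. All 33 genes under 100 TPM in the hepatopancreas and all 9 genes of 100 to 1000 TPM were higher in muscle. The 33 calls were kept in every alternative fit tried. Only 7 of the 9 were kept with library sizes alone (without ranks 71 and 83) and 5 of the 9 with limma on log2(TPM + 1). Without a filter on low counts ranks 1 and 83 did not pass, rank 1 at a log2 fold change of 10.4 (edgeR adjusted p = 0.075). Of the 57 genes of at least 1000 TPM, 2 were higher, 1 was lower and 54 did not pass. Muscle values lay above every hepatopancreas value for 42 genes, against 5.82% of all genes tested, and below every one for 39, against 55.6%.

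The direction for the 57 shared genes depended on the scaling. With edgeR's TMM factors, which align the bulk of genes between libraries, their median log2 fold change of muscle over hepatopancreas was 1.06, and the median of all genes was -0.17. With library sizes alone the median of the 57 was -0.58 and that of all genes -1.48, and 4 of the 57 were lower in muscle and none higher, against 38.3% and 5.52% of all genes tested. The median of the 57 thus turned its sign with the scaling. It lay above that of all genes under both, with 54 of the 57 genes above it with TMM factors and 52 with library sizes alone, which the choice of genes by their muscle level favours.

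The 2 highest fold changes over the hepatopancreas among the 99 belonged to rank 21, snap-scaffold265817-processed-gene-0.3, and rank 7, snap-scaffold280041-processed-gene-0.2. Rank 21 stood at 4427, 2558 and 4970 TPM in P. virginalis muscle and had 1, 0 and 0 counts in the 3 hepatopancreas libraries, animal 2 given first. Rank 7 (207 nt) stood at 44319, 16584 and 19233 TPM in muscle and had 0, 2.85 and 0 counts there. These few counts give no firm fold change. Of the genes that passed, rank 50, evm-scaffold1419-processed-gene-1.25, and rank 83, evm-scaffold94445-processed-gene-0.0, had the lowest fold changes. Rank 83 was higher in muscle, at 1470, 1583 and 1271 TPM, against 857, 830 and 596 TPM in the hepatopancreas (log2 fold change 2.64, edgeR adjusted p = 0.022). Its log2 fold change was 1.01 with library sizes alone (edgeR adjusted p = 0.174). Its call was also lost, at log2 fold changes of 2.02 to 2.83, without the muscle of animal 6 and without the hepatopancreas of animal 2, 6 or 7.

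Rank 50 was the one gene of the 99 that edgeR with TMM factors called lower in muscle. It stood at 1565, 1906 and 3301 TPM in P. virginalis muscle, against 27033, 52141 and 55517 TPM in the hepatopancreas, where it was the fourth most abundant gene (log2 fold change -2.80, edgeR adjusted p = 0.048). In P. fallax muscle it stood at 3437, 18190 and 24220 TPM, above all P. virginalis muscle values. The summed level of the hepatopancreas genes given above was 134, 1452 and 194 TPM in muscle of P. fallax animals 1, 3 and 4. Whether hepatopancreas RNA in the muscle samples adds to the level of rank 50 was not tested. In the same fit ranks 34 and 46 were the genes of at least 1000 TPM in the hepatopancreas that were called higher in muscle. Rank 34 stood at 2998, 2997 and 2580 TPM in P. virginalis muscle, against 1339, 1513 and 1178 TPM in the hepatopancreas (log2 fold change 2.79, edgeR adjusted p = 0.043). Rank 46 stood at 2348, 2946 and 1774 TPM in P. virginalis muscle, against 1026, 1361 and 1232 TPM in the hepatopancreas (log2 fold change 2.76, edgeR adjusted p = 0.029). These 3 calls depended on the fit. With the animal as a block, since both tissues came from the same animals, ranks 34 and 50 were at adjusted p of 0.058 and 0.055 and did not pass, while rank 46 did (edgeR adjusted p = 0.043). The calls of ranks 34 and 46 were lost when any library but the muscle of animal 7 was left out, and that of rank 50 when any but the hepatopancreas of animal 2 was. Over the 6 omissions the log2 fold changes ranged from 2.22 to 3.20 for rank 34, from 1.95 to 3.21 for rank 46 and from -3.25 to -2.56 for rank 50. With library sizes alone ranks 34 and 46 did not pass, and the log2 fold change of rank 46 was 1.10. Rank 50 passed there, at a log2 fold change of -4.17 (edgeR adjusted p = 0.00028). All 3 passed with DESeq2 and with all 9 libraries in one model, and none passed without a filter on low counts. With limma, rank 50 passed under both pseudocounts, rank 34 only with a pseudocount of 1 and rank 46 with neither. DESeq2 added 9 members to the 45 that passed, all of them higher in muscle.

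P. fallax muscle carried largely the same abundant genes. A mean of at least 1000 TPM was reached there by 95 of the 99 genes, and 75 of them reached it in every one of the 6 muscle libraries. In all, 106 genes reached that mean in P. fallax muscle, so that the shared genes are 96.0% of the 99 and 89.6% of the P. fallax list. The 4 genes that fell short were ranks 69, 91, 97 and 98, the lowest at 777 TPM. The 11 genes of the P. fallax list that are not among the 99 had means of 171 to 990 TPM in P. virginalis muscle. Across the 99 genes the mean levels in P. virginalis and P. fallax muscle had a Spearman correlation of 0.848, as a description over genes that share libraries and a selection.

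The species were compared in the same way. Of 5053 genes tested with edgeR over the 6 muscle libraries, 1.25% passed an adjusted p of 0.05, with 0.97% higher and 0.277% lower in P. virginalis, and 0 of the 99 genes passed. With so few genes passing in all, and with the P. virginalis libraries of this contrast used to choose the 99, nothing is read from this count. At an unadjusted p under 0.05 edgeR gave 3 of the 99 genes, while DESeq2 gave 0 after adjustment and 6 before it. When only library sizes were used for scaling, 2 genes passed, 1 higher in P. virginalis, against 0.732% of genes tested, and 1 lower, against 0.693%. No gene had all P. virginalis muscle values above all P. fallax values, against 1.64% of genes tested, and ranks 27 and 50 had all of them below, against 9.02%.

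With TMM factors, the largest log2 fold changes of P. virginalis over P. fallax muscle were those of rank 42, maker-scaffold467-snap-gene-0.24, at 2.15 and rank 1 at 2.05. With library sizes alone rank 1 was at 1.45 and rank 42 at 1.28. There rank 1 passed (edgeR adjusted p = 0.016) and rank 42 did not (edgeR adjusted p = 0.775). With TMM factors rank 1 did not pass (edgeR adjusted p = 0.843). Rank 42 stood at 791, 2942 and 3750 TPM in P. virginalis muscle and at 487, 1254 and 1347 TPM in P. fallax muscle, so the groups overlapped. The lowest with TMM factors were those of rank 50 at -1.95 and of the identical pair of ranks 85 and 86 at -0.58, whose division between the copies is uncertain. With library sizes alone rank 50 was at -2.79 and passed (edgeR adjusted p = 0.00079), while rank 4 was at -0.88 and ranks 85 and 86 at -0.87. The choice of the genes by their P. virginalis level favours a higher value in that species, so their median is only a description. The median log2 fold change of the 99 genes was 0.58 with TMM factors, against -0.01 over all genes, and -0.24 with library sizes alone, against -0.59 over all genes. It was -0.17 with TMM factors when P. virginalis animal 6 was left out, so the sign of the median turned on the scaling and on that library.

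The spread of TPM between animals differed between the kinds of genes. Over the 99 genes the median coefficient of variation of TPM was 23.4% in P. virginalis muscle and 31.2% in P. fallax muscle. It was 16.5% in the hepatopancreas. Over all genes with a mean above 0 it was 86.7%, 85.0% and 74.0%. Those medians hold more measurement error, since the deposited interval in P. virginalis muscle had a median halfwidth of 117% over all genes, against 2.58% over the 99. The genes of 100 to 1000 TPM in P. virginalis muscle, 138 in number, had medians of 43.0% in P. virginalis muscle and 53.6% in P. fallax muscle. By hepatopancreas level, the 33 genes under 100 TPM had medians of 45.8% in P. virginalis muscle and 43.6% in P. fallax muscle. The 9 genes of 100 to 1000 TPM had 57.9% in P. virginalis muscle and 123% in P. fallax muscle. The 57 genes of at least 1000 TPM had 21.0% in P. virginalis muscle and 29.3% in P. fallax muscle, and 11.0% in the hepatopancreas. No test was run on these medians. The medians by hepatopancreas level were taken from TPM only, so whether their order holds under another scaling was not tested. The P. virginalis median rests on the scaling, and so does the order of the species. From TMM-normalized CPM the medians were 73.8% in P. virginalis muscle and 40.1% in P. fallax muscle. From TPM rescaled without rank 1 they were 34.4% and 25.6%. By TPM the P. fallax median was 17.7% without animal 1.

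**Figure D4:**
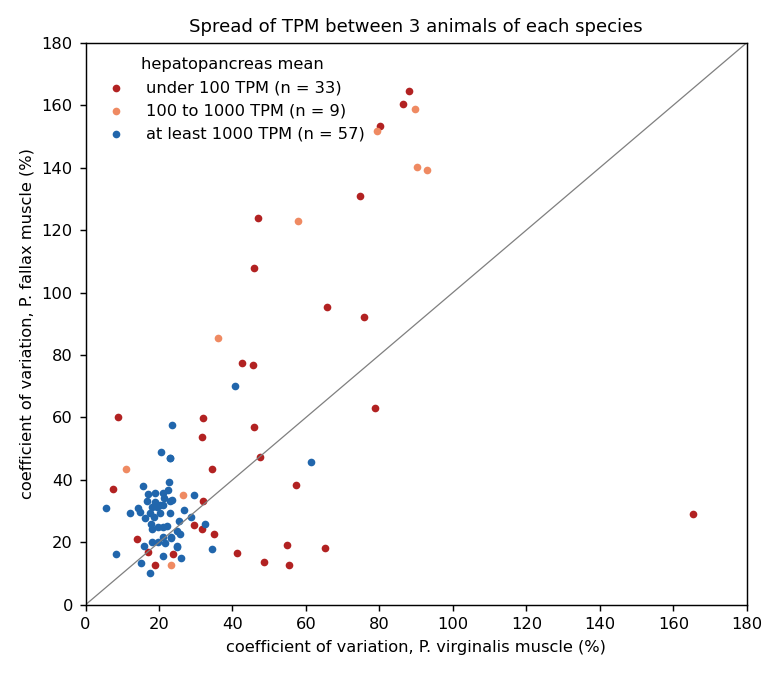
Coefficient of variation of TPM between the 3 animals in P. fallax muscle (y, %) against that in P. virginalis muscle (x, %) for the 99 genes, coloured by hepatopancreas mean, with the line of equality. The genes of at least 1000 TPM in the hepatopancreas lie at or below 70.0% in both species, and 6 genes exceed 80% in both.

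Among the 57 shared genes P. virginalis animal 7 had the lowest TPM for 51 and animal 6 the highest for 42. P. fallax animal 1 had the lowest for 52, while the highest was animal 3 for 29 and animal 4 for 27. P. virginalis animal 7 was read with longer reads than animals 2 and 6, and its muscle library had the fewest expected counts. Within that species, animal, read length and depth cannot be told apart. Rank 73, evm-scaffold11311-processed-gene-0.1 (2633 nt), had the smallest coefficient of variation of the 99 genes in P. virginalis muscle, 5.55%. It stood at 1599, 1715 and 1538 TPM in P. virginalis muscle and at 1496, 1233 and 2221 TPM in P. fallax muscle, against 5897, 5776 and 6201 TPM in the hepatopancreas. Rank 32, evm-scaffold28687-processed-gene-0.2, had the smallest in P. fallax muscle, 10.2%. It stood at 2804, 3492 and 2490 TPM in P. virginalis muscle and at 3254, 3998 and 3651 TPM in P. fallax muscle. Over the 6 muscle libraries, 27 of the 99 genes varied less than 2-fold between the lowest and the highest library, and 21 varied at least 5-fold.

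Some of the 99 genes differed by far more between animals of one species. A coefficient of variation of at least 80% was found for 7 genes in P. virginalis muscle and 14 in P. fallax muscle, and 6 genes reached it in both species, namely ranks 9, 10, 38, 43, 53 and 90. In all 6 of them P. virginalis animal 2 was lowest among its species and P. fallax animal 1 was highest among its own. The 6 were singled out after their values were seen, and no test was run on the pattern.

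Rank 9 (2408 nt) stood at 1144, 22765 and 20858 TPM in P. virginalis muscle of animals 2, 6 and 7 and at 26241, 2093 and 137 TPM in P. fallax muscle of animals 1, 3 and 4. Its highest muscle library was 191-fold above its lowest. Rank 10 (1159 nt) stood at 843, 24917 and 14415 TPM in P. virginalis muscle and at 18460, 2182 and 553 TPM in P. fallax muscle. In the hepatopancreas rank 9 had 13.7, 19.4 and 34.2 TPM and rank 10 had 111, 502 and 222 TPM.

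Ranks 38 and 53 share scaffold 110044 and had like profiles. Rank 38, maker-scaffold110044-snap-gene-0.20 (1460 nt), stood at 124, 3180 and 4846 TPM in P. virginalis muscle and at 4443, 66.2 and 89.9 TPM in P. fallax muscle, where its coefficient of variation of 164% was the largest of the 99 genes. Rank 53 (1464 nt) stood at 126, 2422 and 3632 TPM in P. virginalis muscle and at 3611, 104 and 83.1 TPM in P. fallax muscle. Both were therefore high in P. virginalis animals 6 and 7 and in P. fallax animal 1 and low in the other 3 muscle libraries.

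Rank 43 stood at 67.6, 4646 and 2716 TPM in P. virginalis muscle and at 5553, 570 and 275 TPM in P. fallax muscle. Rank 90 stood at 64.8, 1416 and 2328 TPM in P. virginalis muscle and at 3012, 148 and 31.5 TPM in P. fallax muscle. Ranks 1, 17, 41, 47, 69, 92 and 98, which reached 80% in P. fallax muscle only, had the same lowest animal in P. virginalis and the same highest animal in P. fallax. Of these, rank 47 stood at 229, 3700 and 3075 TPM in P. virginalis muscle and at 6100, 394 and 156 TPM in P. fallax muscle. In each of these genes the ranges of both species overlapped. Rank 1 fell no lower than 189178 TPM in P. virginalis muscle, above the 57634 and 50830 TPM of P. fallax animals 3 and 4.

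**Figure D5:**
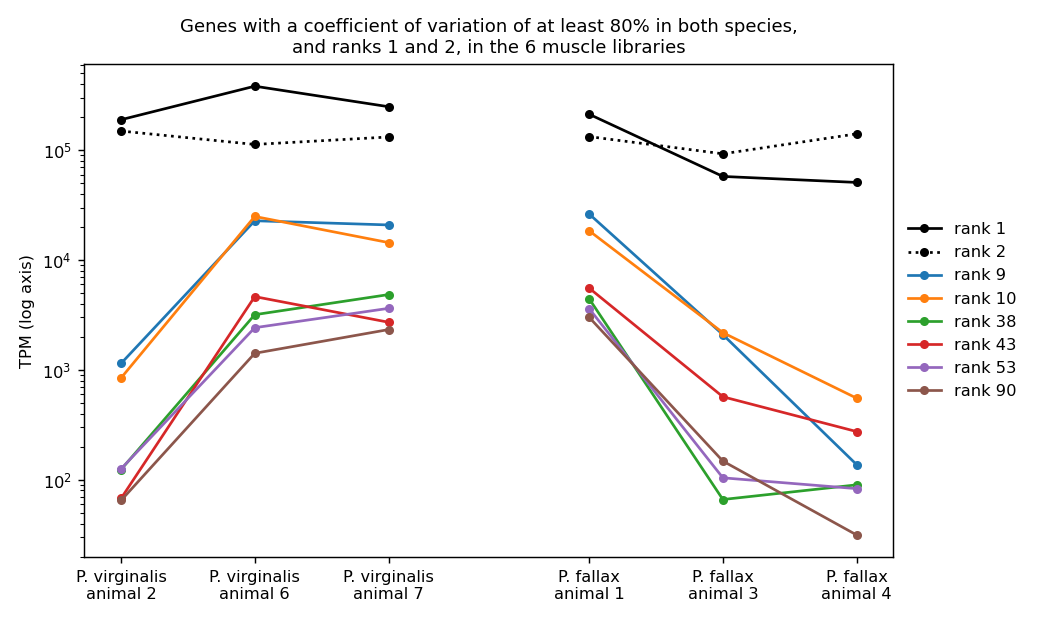
TPM on a log axis (y) in each of the 6 muscle libraries (x, 3 P. virginalis animals, then 3 P. fallax animals) for the 6 genes with a coefficient of variation of at least 80% in both species (coloured lines) and for rank 1 (black, solid) and rank 2 (black, dotted). Every coloured line is lowest at animal 2 within P. virginalis and highest at animal 1 within P. fallax, while rank 2 stays between 92598 and 149234 TPM.

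Other wide genes followed their own course. Rank 91, maker-scaffold56843-snap-gene-0.0, had the largest coefficient of variation of the 99 genes in P. virginalis muscle, 165%. It stood at 108, 1.73 and 3503 TPM in P. virginalis muscle and at 939, 525 and 911 TPM in P. fallax muscle, so its place among the 99 rests on animal 7. Rank 57 (277 nt) stood at 2830, 1080 and 1833 TPM in P. virginalis muscle and at 510, 3461 and 659 TPM in P. fallax muscle, where animal 3 rather than animal 1 was highest. Among the 33 genes under 100 TPM in the hepatopancreas, P. virginalis animal 6 was lowest for 23. When TPM was rescaled without rank 1, it was lowest for 16 of the 33.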

How the data were processed

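RNA-seq libraries of 9 samples were used, 3 per group, each from 1 animal and 1 tissue, and grouped by the species, tissue and animal in the sample labels. The authors deposited, for every gene and library, the expected count estimated by RSEM, unnormalized, and the TPM, which RSEM scales by effective length and library total. The submitters' processing notes name RSEM 1.2.30 and HISAT2 2.0.4; the gene model release is not given in the sources used here. Every row of the files carried a gene identifier, and FPKM was not used.

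Members were ranked by mean TPM. Shares, coefficients of variation (SD with n - 1, as a percentage of the mean) and counts of genes were computed from TPM or expected counts without a filter. Expected counts rounded to whole numbers were tested with edgeR 4.0.16 in R 4.3.3 (quasi-likelihood, TMM, filterByExpr, Benjamini-Hochberg adjusted p under 0.05), which was first tested on simulated counts. Alternatives used DESeq2 1.42.0, limma 3.58.1 on log2 TPM with a pseudocount of 1 or 0.1 (genes of at least 1 TPM on average), RLE factors, library sizes alone, no filter on low counts, all 9 libraries in one model, the animal as a block, and leaving out each animal. Other steps used Python 3.11.15 and pandas 2.3.3. The members and lists were chosen with earlier results of these data known.

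Identifiers are printed for the 4 highest ranks, the 2 genes on either side of the limit, the members with the 2 highest and 2 lowest fold changes in each comparison (among those past the threshold, or all where none passed) and those with the highest and lowest coefficient of variation in each species. Other members were picked after their values were seen. A number shared by a muscle and a hepatopancreas sample marks 1 animal in their titles, which pairs them. The deviations of such pairs from the group means correlated with r = -0.0736 for animal 2, 0.257 for animal 6 and -0.0702 for animal 7. The deposited intervals cover counting error and the division of fragments between similar transcripts, not differences between animals.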

Additional observations from a re-analysis of the deposited data

How the results depend on the processing

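The list held 54 genes at a limit of 2000 TPM, and 97 to 99 when each animal was left out. Without rank 1 in either sum, the other 98 genes held 84.5% of the P. virginalis muscle counts, and leaving out each animal gave shares of 87.5% to 91.4% in P. virginalis muscle, 81.0% to 86.5% in P. fallax muscle and 13.4% to 14.0% in the hepatopancreas, where the share by TPM was 25.5%. With TMM-normalized CPM the median coefficient of variation was 73.8% in P. virginalis muscle and 40.1% in P. fallax muscle. It was 73.8% and 46.3% with DESeq2's size factors, and 34.4% and 25.6% with TPM rescaled without rank 1. Leaving out each animal gave 18.7% to 27.9% in P. virginalis muscle and 17.7% (without animal 1) to 35.7% in P. fallax muscle. Between 88 and 95 of the 99 genes reached a mean of 1000 TPM in P. fallax muscle and 57 did in the hepatopancreas under every omission.

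Between the species 2 of the 99 genes passed with library sizes alone and 0 when any animal was left out. The count over all genes was 63, against 111 with DESeq2, 307 without a filter, 25 with limma on log2(TPM + 1) and 35 to 85 when each animal was left out. Between the tissues 39 to 47 of the 99 genes and 2140 to 2588 of all genes passed when single libraries were left out in turn. With the replicate block by animal 42 of the 99 genes passed, all higher in muscle, and the calls of ranks 34, 43 and 50 were lost. The precision of rank 23, the shortest model at 150 nt, is limited by its counts, which were 84.0 in muscle of P. virginalis animal 7. Its TPM also rests on a division by a very small usable length, 3.99 nt at its smallest over the libraries.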
